A study of Mus musculus with 2 samples.

Results

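The 9 mouse genes for the subunits of the chaperonin CCT (Tcp1, Cct2, Cct3, Cct4, Cct5, Cct6a, Cct6b, Cct7 and Cct8) were followed in testes of 17 day old mice. They are 9 of the 12393 genes that the arrays read with probe sets of a single gene symbol, and they were found by that symbol in the platform annotation. One group was wild type and the other was UBR2-/-, lacking the ubiquitin ligase UBR2; both were of mixed 129SV and C57BL background. Each genotype was measured on 1 oligonucleotide array of total testis RNA (n = 1); per the labels, 2 testes were taken, from different mice of a litter. The sources used here do not give how the UBR2-/- allele was made or whether the RNA of both testes was pooled. With 1 array per genotype there is no replicate check and no test, and every difference below is a difference between these 2 arrays. The family was chosen because the testis subunit Cct6b was already known to stand far below wild type on the UBR2-/- array, so its value is a description.

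CCT, also called TRiC, is the chaperonin of the cytosol: a barrel of stacked rings, each built from 8 different but related subunits, in which newly made proteins are enclosed and folded with the energy of ATP. Actin and tubulin are its classical clients, and many proteins with WD40 propellers also pass through it. Prefoldin hands unfolded chains to it, and phosducin-like proteins bind it as cofactors. The position of the zeta subunit in the ring can be filled by the product of Cct6a, used in most tissues, or of its relative Cct6b, which is known from the testis. Germ cells need large amounts of tubulin for the spindle, the manchette and the sperm tail.

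The DNA between 3 pairs of gene starts is shown because 7 of the 8 CCT genes with a listed start site have the start of another gene, read in the opposite direction, within 1000 bases upstream, and Cct6b shares the shortest such stretch. The share of all genes with such a neighbour was not counted, so this is not shown to be particular to CCT genes. The sequences run between the start of the CCT gene and the start of its head-to-head neighbour and come from RefSeq promoters of GRCm38.p6, 5′ to 3′ on the strand of the CCT gene. Cct6b lies on chromosome 11 and faces Zfp830 over 23 bases (chr11:82764322-82764344, minus strand). Cct6a lies on chromosome 5 and faces Psph over 102 bases (chr5:129787254-129787355, plus strand). Cct3 lies on chromosome 3 and faces Tsacc over 135 bases (chr3:88297000-88297134, plus strand). Capitals mark GC boxes (GGGCGG) and CCAAT boxes (CCAAT), each on either strand.
Cct6b: agcttccgaggcgtgatagcgtc
Cct6a: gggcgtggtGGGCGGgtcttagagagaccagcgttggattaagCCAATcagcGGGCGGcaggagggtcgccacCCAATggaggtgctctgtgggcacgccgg
Cct3: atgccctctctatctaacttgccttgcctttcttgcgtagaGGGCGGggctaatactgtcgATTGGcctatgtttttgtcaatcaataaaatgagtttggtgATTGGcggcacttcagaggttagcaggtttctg
The stretch of Cct6b held none of the motifs searched, while that of Cct6a held 2 GC boxes and 2 CCAAT boxes. At 23 bases against 102, the stretch of Cct6b has less room for any motif, so the contents are not comparable. Gene models of the same assembly differ in where these genes begin, so the distances hold for the listed starts only.

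Cct6b, the testis zeta subunit, gave 279.3 signal units in wild type and 24.9 in UBR2-/- testes. Its wild type signal lay well above the floor of 24.4, the 40th percentile of that array, below which signals were not ordered. Its UBR2-/- signal lay just above the floor of 24.7 of that array and is therefore close to not being read at all. The signal was 11.2-fold lower on the UBR2-/- array, a log2 ratio (UBR2-/- over wild type) of -3.49, and little more than a bound; with the floor at the 60th percentile the ratio was -1.64. Of 8091 genes bright enough to be compared, 9 had a lower ratio after the floor was applied, and genes not above that floor in UBR2-/- testes, whose ratios are bounds, could lie lower than counted here. Cct6b was read by 1 probe set, so no second probe set of the gene checks this value. In whole testis RNA, fewer cells that use a gene and less of its RNA per cell cannot be told apart.

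Cct6a, which encodes the zeta subunit of most tissues, gave 1676.3 in wild type and 1359.4 in UBR2-/- testes. Its log2 ratio was -0.30, and its other probe set, with 1514.4 and 1338.2, gave -0.18. The log2 ratio of Cct6b minus that of Cct6a was -3.19, or 9.10-fold on a linear scale. With Cct6b at the edge of the floor this size depends on it: with the floor at the 60th percentile the difference was -1.34. Both of these genes were lower on the UBR2-/- array, but only Cct6b by more than 2-fold.

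**Figure D1:**
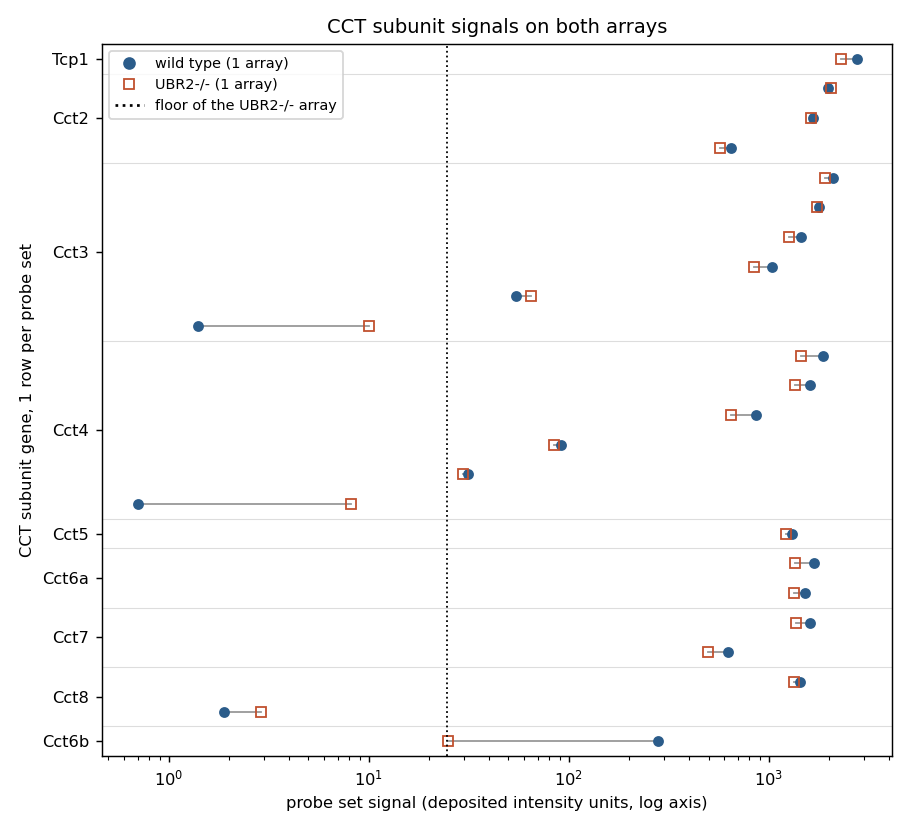
Signals of all 24 CCT probe sets (x axis, deposited intensity units, log scale), 1 row per probe set grouped by gene, with filled circles for the wild type array, open squares for the UBR2-/- array and a dotted line at the UBR2-/- floor of 24.7. Cct6b moves from 279.3 to 24.9, while the circle and square of each ring subunit probe set above the floor lie close together; the 3 probe sets below the floor on both arrays have no order.

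The other 7 ring subunits stayed within 2-fold as well. Tcp1, the alpha subunit and the gene that gave the complex one of its names, gave 2747.5 in wild type and 2294.7 in UBR2-/- testes, a log2 ratio of -0.26. Cct4, the delta subunit, had 1871.5 and 1442.3, a log2 ratio of -0.38. Cct7, the eta subunit, had 1612 and 1365.6, a log2 ratio of -0.24. These 3 genes and Cct6a had the lowest ratios of the ring. Cct3, the gamma subunit, had 2089.9 and 1919, a log2 ratio of -0.12. Cct8, the theta subunit, had 1437 and 1330.7, a log2 ratio of -0.11. Cct5, the epsilon subunit, had 1304.6 and 1218.5, a log2 ratio of -0.10. These 3 lay nearer to 0. Cct2, the beta subunit, had 1971.8 and 2051.2, a log2 ratio of 0.06, which quantile normalization turned to -0.08, loess to -0.08, the mean over probe sets to -0.06 and spike-in scaling to -0.29. The other 7 ring subunits were below 0 under each alternative of scaling, floor and probe set in which they were read.

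Of the 8 ring subunits other than Cct6b, 0 were at least 2-fold higher or lower, against 3.87% of all compared genes at least 2-fold either way. Cct6b was the 1 member of 9 that was at least 2-fold lower, against 3.52% of all compared genes. The comparison that chose the members also gave these counts, so they describe the family and support nothing. Of the 8 ring subunits, 7 had a log2 ratio below 0, and 8 of the 8 lay below the median of all compared genes. The median of the 8 was -0.18, or 1.13-fold lower, and that of all compared genes was 0.07 with quartiles of -0.17 and 0.28. Among the 233 other genes of like brightness, with a mean signal between 1262 and 2521, the median was 0.15 with quartiles of -0.03 and 0.28. Of these genes, 12.9% had a ratio at or below -0.18 and 30.5% had one below 0.

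The size of these small ratios can be set against the disagreement between probe sets of 1 gene. For probe sets with a signal over 1000, a single probe set's log2 ratio had an SD of 0.09, from pairs in 112 genes, and for signals of 100 to 1000 it was 0.16, from 1537 genes. Because such pairs come from the same hybridisations, this SD holds no error between arrays or animals. The ratios of Cct4, Cct6a, Tcp1 and Cct7 lay further from 0 than 2 such SDs of bright probe sets, while those of Cct3, Cct8, Cct5 and Cct2 did not. This split holds for the brightest probe sets on the deposited scale: loess took Cct3, Cct8 and Cct5 to -0.26, -0.21 and -0.19, past 2 SDs, quantile normalization took Cct3 to -0.27, spike-in scaling took all 8 past 2 SDs, and the other probe set of Cct6a, at -0.18, lay inside. It also rests on 0 as the reference. Measured from the median of all compared genes, 0.07, Cct3 lay at -0.20 and Cct8 at -0.19, both past 2 SDs, Cct8 only just. Whether the distance of the ring from other genes would recur with another pair of arrays was not tested.

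**Figure D2:**
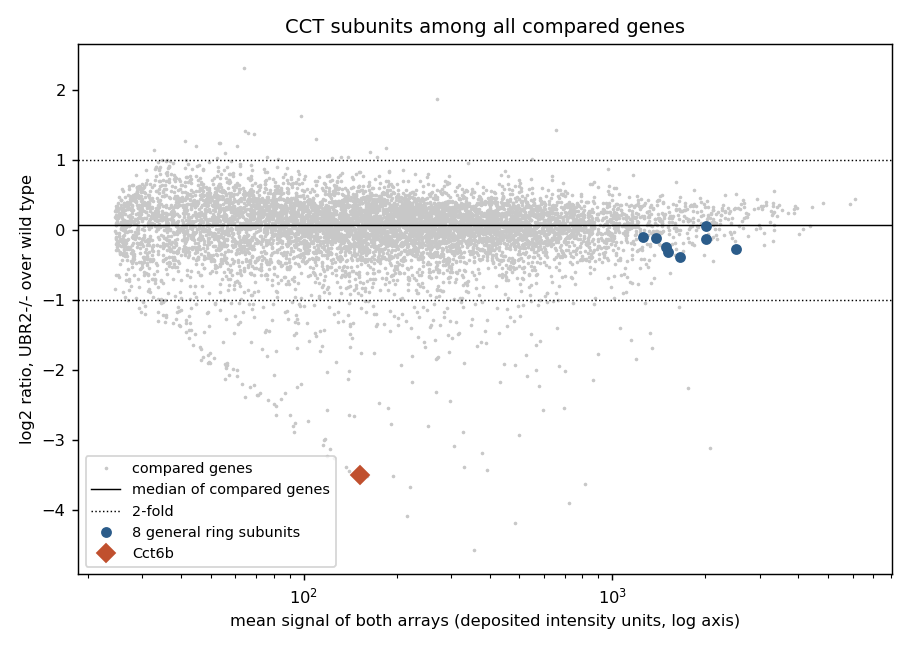
Log2 ratio of UBR2-/- over wild type (y axis) against the mean signal of both arrays (x axis, log scale) for 8091 compared genes in grey, with the 8 general ring subunits as circles and Cct6b as a diamond; the solid line is the median of all compared genes, 0.07, and dotted lines mark 2-fold. The ring subunits lie among the bright genes between -0.38 and 0.06, and Cct6b lies at -3.49, on the lower edge that the floor of the UBR2-/- array sets for genes of its brightness.

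The 9 genes were read by 24 probe sets, of which 21 had a mean signal above the floor and 3 (1 each of Cct3, Cct4 and Cct8) were below the floor on both arrays. Of the 20 readable probe sets of the 8 ring subunits, 18 had a ratio below 0 and 2 above it, with a median of -0.19 and a range from -0.42 to 0.25. Probe sets of the same gene read the same RNA, so these are not 20 separate readings. Cct4 was below 0 in all 5 of its readable probe sets. The 3 brightest of them had signals of 1871.5, 1609.5 and 863.7 on the wild type array and 1442.3, 1359 and 647.2 on the UBR2-/- array, with ratios of -0.38, -0.24 and -0.42. The other 2 were dim and gave -0.11 and -0.09. Cct3 was below 0 in 4 of its 5 readable probe sets, from -0.29 to -0.03. The remaining one, dim at 54.6 and 64.8, gave 0.25 and is the highest value of the family. The 3 probe sets of Cct2 gave 0.06, -0.03 and -0.20, the last from the dimmest of them. Cct7 had -0.24 and, in its dimmer probe set, -0.32. Tcp1, Cct5 and Cct6b had 1 probe set each, and Cct8 had 1 that was readable. Many of the probe sets of Cct2, Cct3 and Cct4 carry suffixes of sets that can bind several transcripts. Without such probe sets 5 ring subunits remained, with a median of -0.24.

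The gene across the shared start region of Cct6b was then read, a comparison chosen after the values were seen. Zfp830, a zinc finger protein gene, begins 23 bases from Cct6b and runs the other way. Its brightest probe set gave 152.5 in wild type and 151.2 in UBR2-/- testes, a log2 ratio of -0.01. Its second probe set, with 50.1 and 45.6, gave -0.14, and the last one was below the floor on both arrays. The 2 genes differed accordingly: the testis subunit was 11.2-fold lower and the gene starting beside it was 1.01-fold lower.

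The head-to-head neighbours of 3 other CCT genes could also be compared. Psph, an enzyme of serine synthesis that faces Cct6a, had 186.2 and 199.4, a log2 ratio of 0.10. Mrpl18, a mitochondrial ribosomal protein gene that faces Tcp1, had 340.9 and 327.7, a log2 ratio of -0.06. Pradc1, which faces Cct7, had 83.5 and 74, a log2 ratio of -0.17. In these 3 pairs both genes stayed within 2-fold. The neighbours of Cct3, Cct5 and Cct8 (Tsacc, Atpsckmt and B130034C11Rik) were not read by a probe set of a single gene symbol, Cct2 had no such neighbour within 1000 bases, and Cct4 had no entry among the promoters used.

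**Figure D3:**
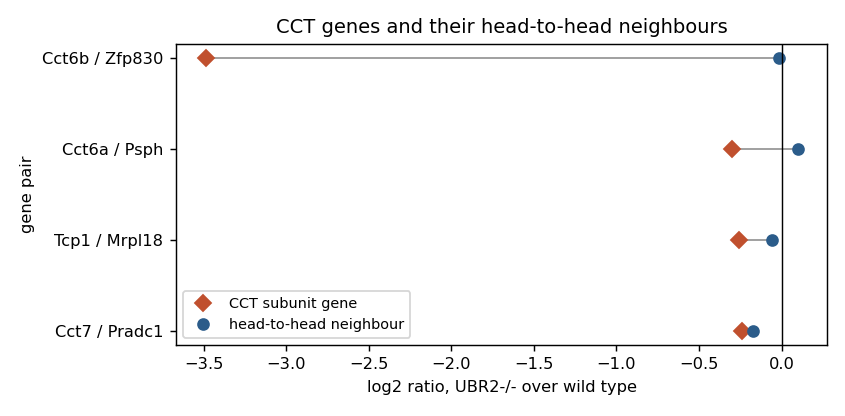
Log2 ratio of UBR2-/- over wild type (x axis) for the 4 CCT genes (diamonds) with a compared head-to-head neighbour (circles), 1 pair per row. Each genotype has 1 array, and the other neighbours were not read by a probe set of a single gene symbol. Cct6b at -3.49 stands apart from Zfp830 at -0.01, whereas the genes of the other 3 pairs lie within 2-fold of 0.

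The promoters, from 250 bases before to 50 after the start, were searched for motifs on both strands, as a description of the sequence and not of any factor's binding. A CCT gene with several listed starts was counted once, as holding a motif if any of its windows did. The shares of all promoters count each listed start separately, so counts and shares are not like for like. Most of the window of Cct6b lies inside Zfp830. The GC box (GGGCGG) was found in 7 of the 8 CCT genes with a promoter, all but Cct6b, and in 35.7% of 32851 mouse promoters of the same length. The CCAAT box was found in 5 of 8, Cct6b among them, and in 37.4% of all. The MYB core was searched as TAACNG and CAACNG, which differ in 1 letter. TAACNG was found in 4 of 8, with 1 site in Cct6b, and in 23.3% of all, and CAACNG in 5 of 8, with 2 sites in Cct6b, and in 35.0% of all. The core of the CRE (TGACGT) was found in Cct6a and in 7.51% of all. Cct2 alone held GTTGCC, a part of the RFX X-box found in 12.5% of all, and GAANNTTC, a heat shock element found in 7.86% of all. The TATA box (TATAAA) was found in 0 of 8 and in 13.6% of all.

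The genes of proteins that work with CCT were mostly within 2-fold. The lists of partners, like the members, were drawn up with earlier results of these data known. Of 21 compared genes for cofactors and relatives of CCT, 20 lay within 2-fold, 1 was at least 2-fold lower and 0 were higher, with a median of 0.20. Of all compared genes 3.52% were at least 2-fold lower and 0.346% higher, so a single call among 21 is near the background. It was Pdcl2, a phosducin-like protein known from germ cells. Its signal was 952.6 in wild type and 203.1 in UBR2-/- testes, and it was 4.69-fold lower (log2 ratio -2.23). The more widely used relatives Pdcl and Pdcl3 had log2 ratios of 0.20 and 0.23, and the thioredoxin-like cofactor Txndc9 had 0.23 (its dimmer probe set, -0.14). The germ cell member of this list was thus far lower, while the general members stayed within 2-fold.

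Of the 8 compared genes of prefoldin and its relatives, 8 lay within 2-fold and the median was 0.08. The members farthest above were the X-linked Uxt, with signals of 108.6 and 181.1 (log2 ratio 0.74), and Vbp1, a prefoldin subunit, with 561 and 807.1 (0.52). Pfdn1 and Pfdn5, also prefoldin subunits, were farthest below at -0.33 and -0.07. The 6 cofactors that assemble tubulin dimers after CCT lay within 2-fold with a median of 0.15. Among them the small GTPase Arl2 and Tbcd had 0.45 and 0.31, and Tbce and Tbcb had -0.16 and 0.04. The 4 readable probe sets of Tbca ranged from -0.54 to 0.05. Hspd1 and Hspe1, the separate chaperonin of mitochondria, had 0.50 and 0.25, on the opposite side of the median of all genes from the CCT ring. Mkks, a CCT-like protein of the BBS complex, had -0.41, and -0.15 by its dimmer probe set.

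Of 35 compared genes for clients of CCT, 32 lay within 2-fold, 3 were at least 2-fold lower and 0 were higher (3.52% and 0.346% of all compared genes), and the median was 0.08. The 3 were Actl7b, Tubd1 and Gnb1l. Actl7b, an actin-like protein of germ cells, had 98.4 on the wild type array and was below the floor on the UBR2-/- array (23.1), which makes it at least 3.98-fold lower. Tubd1, delta-tubulin of the centriole, had 92.6 and 44.7 and was 2.07-fold lower. Gnb1l, a WD40 protein, had 49.4 and, below the floor, 21.6, at its bound of 2-fold. The classical clients lay above 0 on the deposited scale, with Actb at 0.18, Actg1 at 0.20, Tuba1a at 0.08 and Tubb4b at 0.17. Spike-in scaling lowers each ratio by about 0.34 and so turns these 4. Tuba4a and Tubb5, an alpha and a beta tubulin, were highest of their list at 0.58 and 0.41, although the other probe set of Tubb5 gave -0.24, and Tubb6 was at -0.18. In the actin list Actr1a and Actl6a were lowest at -0.42 and -0.40. In the list of WD40 and cell cycle clients the cyclin gene Ccne1 and the G protein gene Gnb4 were highest, both at 0.51, and Fzr1, an activator of the anaphase-promoting complex, was at -0.25. Cdc20, its relative in mitosis, had -0.20 in its brightest of 3 probe sets, which ranged up to 1.23.

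**Figure D4:**
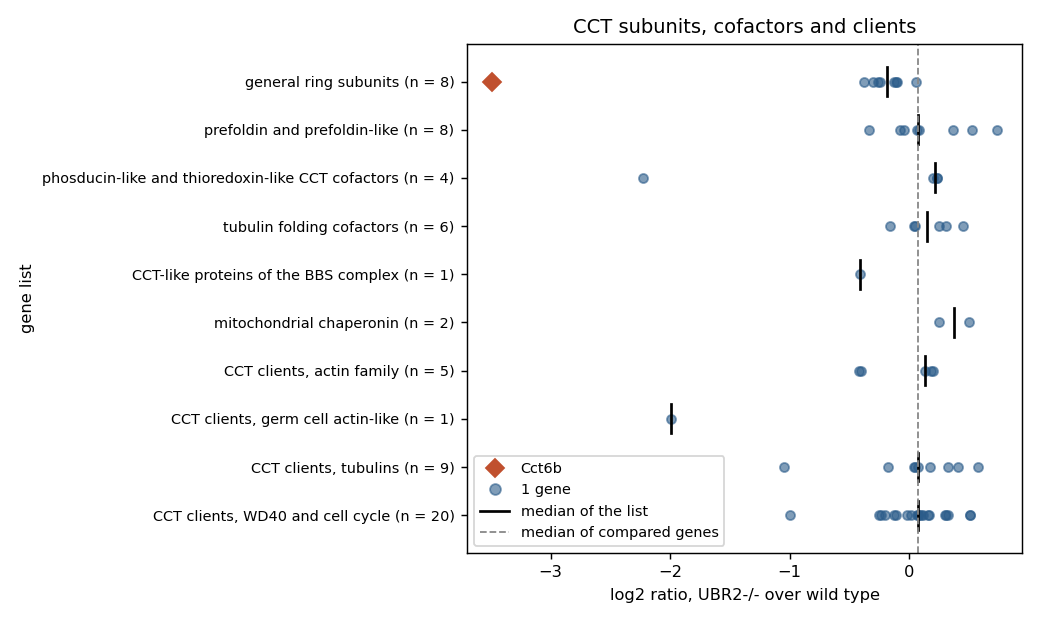
Log2 ratio of UBR2-/- over wild type (x axis) for each compared gene (circles) of the CCT ring and of 9 lists of its cofactors, relatives and clients, with the median of each list as a black bar, Cct6b as a diamond and the median of all compared genes as a dashed line. Apart from Cct6b, the ring and most partners lie between -0.5 and 0.8; Pdcl2 at -2.23, Actl7b and Gnb1l (both at the UBR2-/- floor) and Tubd1 lie at or below -1.

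Cct6b and Cct6a form a pair of a testis gene and a general relative, and 17 such pairs, this one included, could be compared out of 30 listed. In 17 of the 17 the testis gene had the lower log2 ratio, and the median difference was -1.42. The testis genes were picked for their use in germ cells and several were known to be low on this array, so the count describes the pairs and supports nothing. Cct6b and Cct6a differed by -3.19. Larger differences were read for the centrins Cetn1 and Cetn2 with -4.20 and the phosphoglycerate mutases Pgam2 and Pgam1 with -3.86. The poly(A)-binding proteins Pabpc2 and Pabpc1 had -3.14. Papolb against Papola, poly(A) polymerases, and Pgk2 against Pgk1, phosphoglycerate kinases, had at least -2.67 and at least -2.36, since the testis gene was below the floor on the UBR2-/- array, so their place relative to Cct6b is not known.

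The remaining pairs differed less. The proteasome subunits Psma8 and Psma7 had a difference of -1.70, the pyruvate dehydrogenase subunits Pdha2 and Pdha1 -1.51, and the chaperones Clgn and Canx of the endoplasmic reticulum -1.42. The HSP70 chaperones Hspa2 and Hspa8 had -1.22, and the related Hspa4l and Hspa4 -0.87. For the lactate dehydrogenases Ldhc and Ldha it was -1.19, for the ribosomal proteins Rpl39l and Rpl39 -1.13 and for the cytochrome c oxidase subunits Cox6b2 and Cox6b1 -1.03. The calcineurin subunits Ppp3cc and Ppp3ca had -0.61, the cleavage factors Cstf2t and Cstf2 -0.53 and the TATA-binding relatives Tbpl1 and Tbp -0.21. Among the general relatives, Ldha was the 1 gene of 17 at least 2-fold lower (log2 ratio -1.92), and Cct6a at -0.30 lay below their median of 0.19.

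**Figure D5:**
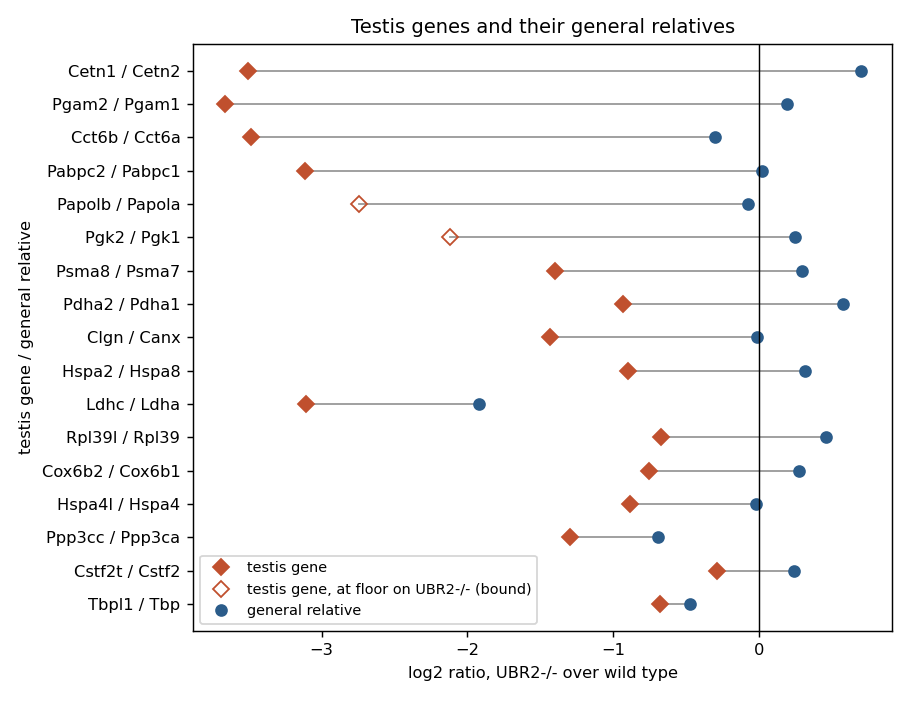
Log2 ratio of UBR2-/- over wild type (x axis) for 17 pairs of a testis gene (diamonds, open where the UBR2-/- signal was below the floor) and its general relative (circles), ordered by the difference between them after the floor was applied. The line of Cct6b and Cct6a runs from -3.49 to -0.30, the lines of open diamonds show a least length, and every diamond lies to the left of its circle.

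The genes whose signals were closest to those of Cct6b on both arrays were sought by the distance between their log2 signals over the 2 arrays. The nearest was the clone-named gene 4930544G11Rik, with 280 on the wild type array and a UBR2-/- signal below the floor, at a distance of 0.012. It was followed by Adam3, a sperm surface protein (267 on the wild type array, distance 0.066), Lrrc23, a radial spoke protein (295.6 and 26, distance 0.10), Catsperz, of the CatSper channel complex of sperm (257.1, distance 0.12), and Cmtm2a (235.7, distance 0.25). All but Lrrc23 were below the floor on the UBR2-/- array. A likeness over 2 arrays, with the lower signal at the floor, separates these genes poorly from others of like brightness that are lost on the UBR2-/- array.

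Among the lists of cell type markers, only that of pachytene and later spermatocytes had a median at least 2-fold lower, as Cct6b was. The part of cell type levels in the result was not tested. Of 8 markers of pachytene and later spermatocytes, 6 were lower by 2-fold or more, 2 were within 2-fold and 0 were higher. Ldhc, Pgk2, Hspa2, Pdha2 and Clgn of this list are also testis genes of the pairs above. Adam3 is also among the genes nearest to Cct6b, so these are not separate observations. After the floor was applied, ratios ran from -3.90 for Crisp2 to -0.90 for Hspa2. Adam3 and Pgk2 were below the floor on the UBR2-/- array, so their ratios of -3.43 and -2.12 are bounds and could lie lower. The list median of -2.50 rests in part on the bound of Pgk2. The signals of the 8 markers summed to 8781.6 in wild type and 1994.4 in UBR2-/- testes. Of 7 compared markers of early meiotic prophase, 1 (Spo11) was at least 2-fold lower, 6 lay between and the sum was 8492.4 and 7870.1. The 8 Sertoli cell markers summed to 8365.7 and 10823.1, with 1 (Amh) at least 2-fold lower and 7 between; most of this sum is Clu, with 5186.1 and 7075.9. The ring subunits, at a median of -0.18, lay between the medians of the spermatocyte list, -2.50, and of the Sertoli list, 0.35, and near that of the early meiotic list, -0.11. Of 7 compared spermatogonia markers 1 (Id4) was at least 2-fold lower, and their sum was 3282.7 and 3483.8. Of the 8 spermatid markers 6 were too dim to compare, and Prm1, a protamine gene, was the 1 compared. It was dim at 35.3 and 94 and went the other way from the spermatocyte markers, at least 2-fold higher (log2 ratio 1.41, with 3 probe sets from 0.35 to 1.55). The 4 compared markers each of Leydig cells, peritubular myoid cells, macrophages and endothelium lay within 2-fold, and the erythrocyte markers Hba-a1 and Alas2 had signals under 2 on both arrays. In these lists 0 markers were at a signal of exactly 0.

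Ubr2, the gene named by the genotype, had 57.2 in wild type and 14.3 in UBR2-/- testes, where it was below the floor and at least 2.32-fold lower by its 1 probe set. Where this probe set lies relative to the change in the UBR2-/- allele is unknown here. Over 22626 probe sets the arrays had median signals of 48.7 (wild type) and 48.75 (UBR2-/-).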

How the data were processed

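Total RNA of testes was labelled with biotin and hybridised to Affymetrix 430A 2.0 arrays, per the labels. The deposited values are linear intensities, 1 signal per probe set; MAS5 is named in the submitters' processing notes, and the sources used here give no settings, detection calls or genome build. Both arrays had a 2% trimmed mean of 150.04, so they were scaled alike before deposit, and this was kept. The number of arrays limits the precision. Of 22626 probe sets that were not controls, 20380 had 1 gene symbol and were used, 691 had several and 1555 none; 20351 matched the GRCm38.p6 gene table by Entrez identifier, which served for names. Promoters came from RefSeq (GRCm38.p6). Signals below the 40th percentile of an array (24.4 and 24.7) were set to it before ratios were taken, and a gene below it on 1 array has an "at least" fold. The probe set with the highest mean signal stood for its gene, which was compared if that mean reached the mean floor. The members, lists and tests were chosen with earlier results of these data known. Named genes were all members, the 2 farthest above and below in each list, any list member past 2-fold, all pairs, and the 5 genes nearest to Cct6b. Others were named after their values were seen. The SD between probe sets is 1.4826 times the median absolute deviation of the difference between the 2 brightest probe sets of a gene, divided by the square root of 2. The calculation was tested on simulated data. Python 3.11.15, pandas 2.3.3 and statsmodels 0.14.6 were used. The alternatives were 4 scalings, floors at the 25th and 60th percentiles, log2 of the signal plus a pseudocount of 10, averaging over probe sets, single-transcript probe sets and thresholds of 1.5-fold and 3-fold.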

Additional observations from a re-analysis of the deposited data

How the results depend on the processing

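The place of Cct6b far below Cct6a and the ring kept its direction under the 9 alternatives to the deposited scale, floor and probe set choice. Median and spike-in scaling shift every log2 ratio alike, and the 25th percentile floor lies below these signals. They could not change the differences from Cct6a and the ring median, which stayed at -3.19 and -3.31. Cct6b has 1 probe set, so the probe set alternatives could move only Cct6a and the ring. Under the 9 alternatives 0 ring subunits passed 2-fold. On the deposited scale 0 passed 1.5-fold, which fixes 0 at 3-fold. With spike-in scaling Cct4, Cct6a and Tcp1 passed 1.5-fold, at -0.72, -0.65 and -0.60. Sizes moved with a higher floor or with none. With the floor at the 60th percentile the log2 ratio of Cct6b was -1.64, its difference from Cct6a -1.34 and that from the ring median -1.46; with a pseudocount of 10 and no floor they were -3.05, -2.75 and -2.87. Spike-in scaling, on 45 bacterial and phage control probe sets with a median log2 ratio of 0.34, took Cct6b to -3.83 and the ring median from -0.18 to -0.53, while the median of all genes went from 0.07 to -0.27. Quantile normalization took the ring median to -0.29 and loess to -0.30. A value counted as moved when it changed by more than the SD between probe sets. The mean over probe sets moved none of these values by more. Nor did leaving out probe sets with suffixes of sets that can bind several transcripts, where 5 ring subunits remained. Dim signal limits Cct6b, whose UBR2-/- value sits at the floor. No paired analysis was possible because each genotype has 1 array.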
